A study of Mus musculus with 3 samples.

Results

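The CCN genes and the Piezo genes were followed through cells sorted from mouse molars. The members were taken by name, as the P15 table writes them, and found in the P25 table by their identifiers: Cyr61 (CCN1), Ctgf (CCN2), Nov (CCN3), Wisp1 (CCN4), Wisp2 (CCN5), Piezo1 and Piezo2. All 7 were present among the 21446 genes that the 3 libraries share, and all 7 passed the filter on low counts. The annotation (GRCm38) places Cyr61 (ENSMUSG00000028195) on the minus strand of chromosome 3 from 145646976 to 145649981, Ctgf (ENSMUSG00000019997) on the plus strand of chromosome 10 from 24595442 to 24598683, and Wisp2 (ENSMUSG00000027656) on the plus strand of chromosome 2 from 163820861 to 163833146. Nov (ENSMUSG00000037362) and Wisp1 (ENSMUSG00000005124) lie on the plus strand of chromosome 15, from 54745702 to 54754039 and from 66891320 to 66923201. Piezo1 (ENSMUSG00000014444) lies on the minus strand of chromosome 8 from 122481698 to 122551329, and Piezo2 has the identifier ENSMUSG00000041482.

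CCN proteins are secreted matricellular proteins that bind integrins, proteoglycans and growth factors in the extracellular matrix. Cyr61 and Ctgf are widely used target genes of the transcriptional coactivators YAP and TAZ, which act through TEAD factors and respond to mechanical load, serum and cell shape. Piezo1 and Piezo2 are mechanically gated cation channels of the plasma membrane, Piezo1 being known for load sensing in bone-forming cells and Piezo2 for touch and proprioception in sensory neurons. Cementum is the mineralized layer of the tooth root in which the fibres of the periodontal ligament are anchored, and the erupted tooth passes chewing load through it.

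Each library was made from Pthrp-mCherry knock-in mice, in which the parathyroid hormone-related protein locus drives a red reporter in cementoblasts, their precursors and other cells around the root. Reporter-positive cells of several mice of the same age were pooled from mandibular molars, sorted and profiled by droplet-based 3′ single-cell RNA sequencing. The libraries were P15 (12926 cells, acellular cementum being completed), P25 (8971 cells, cellular cementum starting) and 8 weeks (5192 cells, mature root). No untreated or wild-type group belongs to the design, every animal carried the knock-in allele, and with 1 library per age a difference between ages and a difference between libraries cannot be told apart.

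Cells were gated by unique molecular identifiers (UMIs, one per captured transcript) of a single gene. A cell entered the Ifitm5, Hand2, Mmp3, Rgs5 or Pappa2 gate with at least 3 UMIs of that gene, and the Ibsp gate with at least 10 UMIs of Ibsp and fewer than 3 of Ifitm5. Ibsp encodes bone sialoprotein and Ifitm5 a membrane protein of mineralizing osteoblasts, so that these 2 gates hold mineralizing cells without and with the late marker. Cells past several gates, and cells with at least 5 UMIs of immune, epithelial, endothelial or glial marker genes, were set apart. At P15, P25 and 8 weeks the Ibsp gate held 1232, 1252 and 883 cells, the Ifitm5 gate 609, 796 and 255, the Hand2 gate 178, 192 and 106, the Mmp3 gate 44, 24 and 30, and the Rgs5 gate 299, 118 and 145. The Pappa2 gate held 430 cells at P15 but 17 and 9 later, under the minimum of 20, so it was summed at P15 only.

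The gates were checked against other markers. The summed level of 5 markers of the Ifitm5 gate (Phex, Col11a2, Smpd3, Bglap and Dmp1) lay between 9231 and 32547 CPM within that gate, where CPM is the UMIs of a gene, summed over the cells of a gate in 1 library, per 1000000 UMIs of those cells. The 5 markers listed for the Ibsp gate did not single it out: they summed to 1494, 1240 and 1694 CPM there at P15, P25 and 8 weeks but to 1934, 1570 and 2458 in the Ifitm5 gate, and to 1913 in the Mmp3 gate at P25. Notch3, a receptor of pericytes and smooth muscle, was at 329 CPM in the Rgs5 gate at P15 but at 30.8 and 8.27 at P25 and 8 weeks. A single marker cannot decide whether the Rgs5 gate holds mural cells, so it is named for its gating gene only at every age. Like Notch3, Il1rl1 in the Mmp3 gate fell with age, from 3094 to 318 and 17.0 CPM. Notch3 and Il1rl1 are single markers from longer lists for these gates. The other markers of those lists, and the markers listed for the Hand2 and Pappa2 gates, are not given here. At P25 and 8 weeks many Ibsp cells also carried Hand2 UMIs, which is described with the Ibsp gate below. The median depth per cell was 14218.5 UMIs in the P15 library, 15000.0 in the P25 library and 8695.0 in the 8 weeks library. They shared 26 barcodes (P15 and P25), 16 (P15 and 8 weeks) and 13 (P25 and 8 weeks).

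RefSeq promoter sequence was at hand for Cyr61 and Piezo1, 2 of the 7 members. The 250 bases before each start site are shown because these 2 members were in the promoter table, Cyr61 being, like Ctgf, a YAP target and Piezo1 a channel. Capitals mark matches, on either strand, to the TEAD core motif GGAATG, which reads CATTCC when it lies on the opposite strand. They also mark the TATA motif TATAAA and the core of the cAMP response element, TGACG or, on the opposite strand, CGTCA.
Cyr61, chr3:145649986-145650235 (GRCm38.p6, minus strand): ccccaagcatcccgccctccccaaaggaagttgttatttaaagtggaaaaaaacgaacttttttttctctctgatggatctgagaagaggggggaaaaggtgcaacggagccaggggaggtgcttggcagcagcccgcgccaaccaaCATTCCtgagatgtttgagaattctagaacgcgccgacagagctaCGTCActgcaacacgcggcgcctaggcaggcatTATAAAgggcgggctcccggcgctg
Piezo1, chr8:122551330-122551579 (GRCm38.p6, minus strand): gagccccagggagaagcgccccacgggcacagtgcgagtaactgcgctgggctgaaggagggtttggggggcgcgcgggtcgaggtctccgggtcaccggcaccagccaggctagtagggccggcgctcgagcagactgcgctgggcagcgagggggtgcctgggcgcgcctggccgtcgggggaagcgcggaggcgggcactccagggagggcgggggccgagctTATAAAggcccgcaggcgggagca
The Cyr61 window held the TEAD match 103 bases before the start site, the cAMP response element core 58 bases before it and a TATA match 25 bases before it. The Piezo1 window held only the TATA match, 24 bases before the start site, and its GC content was 74.0% against 54.8% for Cyr61 and a median of 52.0% over 27025 promoters. Of all promoters of this length, 12.6% held the TEAD motif, 13% the TATA motif and 17.9% the cAMP response element core on either strand, so each match alone is common.

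Levels are in CPM, with an exact 95% Poisson interval that covers counting error only. Where detection per cell is given, cells were first brought to 3000 UMIs by random thinning and shallower cells were left out. The immune cells of the same library, which should lack most of these transcripts, stand beside such shares as background.

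**Figure D1:**
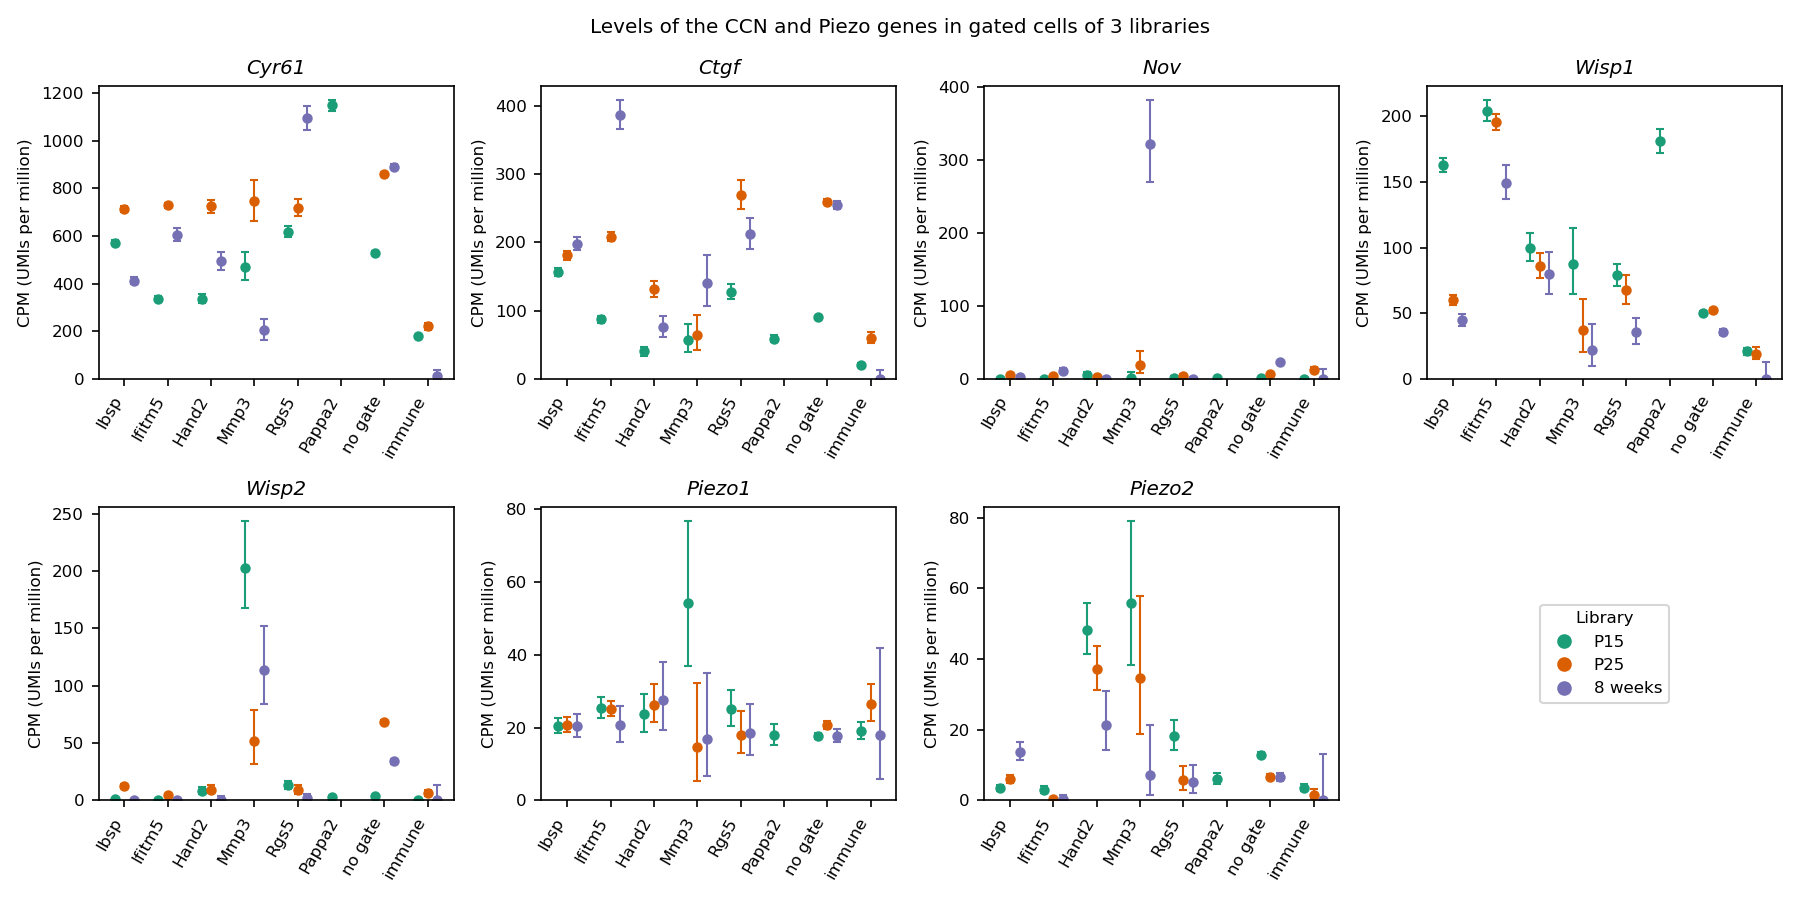
Level of each member (CPM, linear axis from 0) by gate, in cells of no gate and in immune cells, for the 3 libraries (colours). Points are sums over the cells of 1 library and bars are 95% Poisson intervals. Among the gates, Wisp2 is highest in the Mmp3 gate in all 3 libraries (at P25 cells of no gate are higher still), Nov in the Mmp3 gate at P25 and 8 weeks, Piezo2 in the Mmp3 gate at P15 and in the Hand2 gate at P25 and 8 weeks, Wisp1 in the Ifitm5 gate, and Piezo1 lies near 20 CPM in nearly every gate.

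Cyr61, a secreted ligand of integrins and an immediate early YAP target, was found in every gate and did not differ between gates by the test. Its Ibsp levels were 572 CPM at P15 (561 to 582), 712 at P25 (700 to 724) and 413 at 8 weeks (399 to 427). In the Ifitm5 gate the levels were 336, 729 and 605. The highest levels were those of the Pappa2 gate at P15 (1149) and of the Rgs5 gate at 8 weeks (1094), and the lowest that of the Mmp3 gate at 8 weeks (204, from 84 UMIs). The ranges of the 5 gates with 3 libraries all overlapped. Immune cells had 179, 221 and 14.4 CPM.

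After thinning, 56.1%, 54.5% and 36.3% of the Ibsp cells had a Cyr61 UMI at P15, P25 and 8 weeks, and 43.6%, 61.0% and 48.8% of the Ifitm5 cells. The immune share was 18.4%, 17.3% and 4.0% at a median of 9674.0, 14715.0 and 8963.0 UMIs per cell, against 14753.0, 12873.0 and 8610.0 in the Ibsp gate. Cyr61 shares of both gates were therefore above the immune background at every age. Without thinning, 82.7%, 76.7% and 55.7% of the Ibsp cells had one. In order of mean level the gates ran Pappa2, Rgs5, Ifitm5, Ibsp, Hand2 and Mmp3. Here and in the orders below, Pappa2 was placed by its P15 sum alone and the other gates by their mean over 3 libraries. No neighbours in that order passed the edgeR test, with adjusted p between 0.591 and 0.941.

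Cyr61 is also among the genes that respond within minutes to cell handling. The summed level of 13 immediate early genes lay between 9291 and 18029 CPM over the 6 gates at P15, between 12530 and 23226 over the 5 gates at P25, and between 10447 in the Hand2 gate and 36496 in the Rgs5 gate at 8 weeks. At 8 weeks the Rgs5 gate was thus highest for both Cyr61 and this list, whereas the Mmp3 gate had the lowest Cyr61 level and the next highest level of the list (19201). The part of these genes in the Cyr61 levels was not tested.

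Ctgf, likewise a YAP target and a profibrotic matrix protein, was highest in the Ifitm5 gate at 8 weeks. The Ifitm5 levels were 87.5 CPM at P15 (82.3 to 92.9), 209 at P25 (202 to 215) and 387 at 8 weeks (367 to 409). The Ibsp gate moved less, with 157, 181 and 198. The Rgs5 gate had 128, 270 and 213, while the Hand2 gate had 40.5, 132 and 75.8 and the Pappa2 gate 59.0 at P15. In the Ifitm5 gate the P15 level lay below, and both later levels above, those of the Ibsp gate.

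Over the 3 libraries Ctgf was higher in the Ifitm5 gate than in the other gates by 1.01 on the log2 scale (SE 0.28, adjusted p = 0.0313). This call was lost under 9 of 17 alternatives, among them those without the P25 library (adjusted p = 0.133) and without the 8 weeks library (adjusted p = 0.203), the range over all being 0.0121 to 0.203. Against the Ibsp gate alone the difference was 0.33 (SE 0.36, adjusted p = 0.762), smaller than its SE, with P15 and the later ages running in opposite directions. The order of mean levels was Ifitm5, Rgs5, Ibsp, Mmp3, Hand2 and Pappa2, and no neighbours differed by the test (adjusted p 0.0674 to 0.992). At P15, the only age summed for Pappa2, its Ctgf level was above those of Mmp3 and Hand2. After thinning, 39.2% of the Ifitm5 cells had a Ctgf UMI at 8 weeks, against 17.8% at P15 (67.8% and 51.6% without thinning). The immune share was 4.01% at P15 and 8.66% at P25, and 0 of 25 immune cells had one at 8 weeks, an exact upper bound of 13.7%.

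Wisp1, a WNT-induced matricellular protein known from osteoblasts, was highest in the Ifitm5 gate in all 3 libraries. Its level there was 204 CPM at P15 (196 to 212), 195 at P25 (189 to 201) and 149 at 8 weeks (137 to 163). The Ibsp gate started at 163 at P15 and was at 60.04 at P25 and 44.6 at 8 weeks. The Ifitm5 gate was the higher of the pair in 3 of 3 libraries, by 1.25 times at P15 (1.19 to 1.32), 3.25 times at P25 (3.04 to 3.48) and 3.35 times at 8 weeks (2.91 to 3.85).

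In the test of the Ifitm5 against the Ibsp gate Wisp1 was the single member called, with a log2 fold change of 1.42 (SE 0.30, adjusted p = 0.0234). Over all 12752 genes tested, 4.15% were called in this contrast. The call was lost without the P25 library (adjusted p = 0.669), without the 8 weeks library (0.200) and without the library as a block (0.276), and over the 17 alternatives the log2 fold change lay between 1.08 and 1.98 and the adjusted p between 0.000134 and 0.669. Against the other gates together Wisp1 was higher in the Ifitm5 gate by 1.55 (SE 0.23, adjusted p = 0.000894), which fell short only without the P25 library (adjusted p = 0.0616). The Pappa2 gate at P15 had 181 CPM and the Hand2 gate 100.0, 86.1 and 79.6. The Mmp3 gate was lower than the other gates by the test, with 87.4, 37.0 and 21.8 CPM (log2 fold change -1.24, SE 0.32, adjusted p = 0.0188, lost under 5 of 17 alternatives, with adjusted p from 0.00165 to 0.138). It was lost without the P25 library (adjusted p = 0.129) and without the 8 weeks library (0.101).

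The Wisp1 order was Ifitm5, Pappa2, Hand2, Ibsp, Rgs5 and Mmp3, with no neighbours apart by the test (adjusted p 0.343 to 0.947). After thinning, 40.4%, 37.9% and 34.4% of Ifitm5 cells had a Wisp1 UMI against 35.6%, 14.3% and 9.24% of Ibsp cells, where 81.0%, 82.2% and 60.4% against 74.9%, 37.8% and 20.3% had one before thinning. Immune cells with one were 2.90% at P15 and 3.46% at P25, and none of 25 at 8 weeks.

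**Figure D2:**
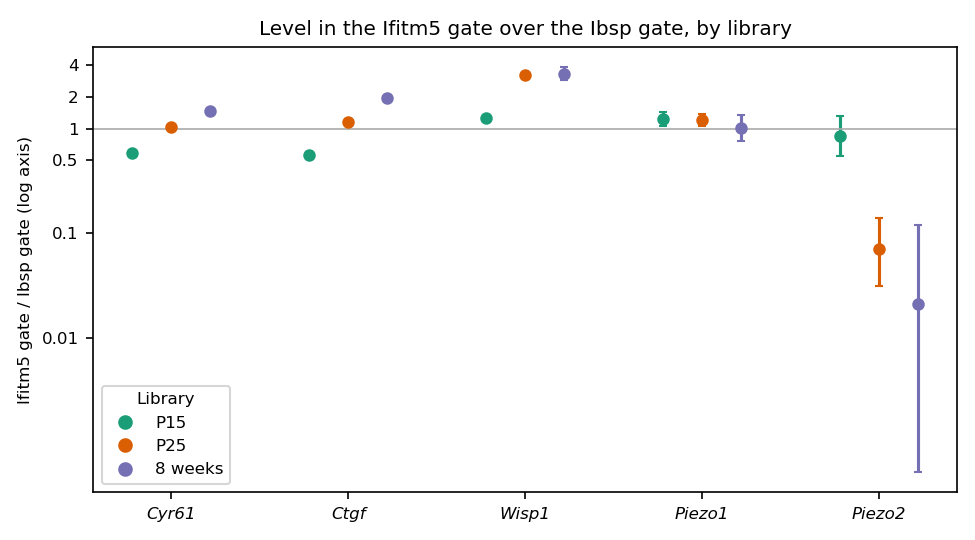
Level in the Ifitm5 gate divided by that in the Ibsp gate (log axis, line at 1) for 5 members in each library. Bars are 95% intervals of the ratio of 2 Poisson counts. Cyr61 and Ctgf pass from below 1 at P15 to above 1 at 8 weeks, and Wisp1 lies above 1 in all 3 libraries. Piezo1 lies at 1.24 at P15 and 1.22 at P25, with intervals clear of 1, and at 1.01 at 8 weeks. Piezo2 falls to 0.0712 at P25 and 0.0211 at 8 weeks.

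Wisp2, a CCN protein that lacks the C-terminal domain of its relatives, was highest in the Mmp3 gate among the 6 gates in every library. That gate had 203 CPM at P15 (167 to 243, from 116 UMIs), 51.8 at P25 (32.1 to 79.2, from 21) and 114 at 8 weeks (83.8 to 152, from 47). Every other gate lay at 13.2 or below in every library, so the Mmp3 gate did not overlap the others. By the test it was higher than the other gates by 5.20 on the log2 scale (SE 0.78, adjusted p = 0.00158), and this fell short only without the P15 library (adjusted p = 0.0549, log2 fold change 4.51). Mmp3 was the only gate that differed from its neighbour in the order of levels (against Rgs5, adjusted p = 0.0290, where 14.9% of all genes were called), the other neighbours having adjusted p of 0.788 to 1.0. The Mmp3 sums came from 24 to 44 cells, the fewest of any gate.

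Most Wisp2 UMIs were in cells of no gate, which held 56.3% of them at P15, 86.4% at P25 and 89.5% at 8 weeks, against 47.7%, 42.2% and 50.8% of all UMIs, while the Mmp3 gate held 17.7%, 0.391% and 5.26%. The level there was 4.12, 68.1 and 34.0 CPM, a rise of 16.5 times (14.9 to 18.4) between P15 and P25. In the Ibsp gate Wisp2 stood at 1.07, 12.5 and 0.645 CPM. The P25 level of the Ibsp gate rested on 233 UMIs. After thinning, 8 of 1221 of its cells had a UMI (0.655%, or 1.84% without thinning), against 2 of 231 immune cells (0.866%). Its share thus did not stand above that of immune cells, while its level of 12.5 CPM was above theirs of 6.29.

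Nov, a CCN protein known to oppose some effects of Ctgf, was at 6.06 CPM or below in every gate at P15. In the Mmp3 gate it gave 1, 8 and 133 UMIs at P15, P25 and 8 weeks, or 1.75, 19.7 and 323 CPM. In cells of no gate the level was 1.36, 7.12 and 22.7 CPM, and at 8 weeks 1 of these cells held 136 of their 532 UMIs. The Ifitm5 gate had 0.334, 3.53 and 11.4, the Ibsp gate 0.612, 5.20 and 3.1, and the Hand2 and Rgs5 gates had 0 UMIs at 8 weeks, which allows up to 2.82 and 2.35 CPM. Immune cells had 0.557 CPM at P15 and 12.1 at P25, above the Ibsp and Ifitm5 gates at P25. At P25, 2 of 243 immune cells, 11 of 1252 Ibsp cells and 11 of 796 Ifitm5 cells had at least 3 Nov UMIs. Epithelial cells held 3.34% of the Nov UMIs at P25 with 18.4% of all UMIs. The Ibsp gate held 12.5% with 11.5%, and the Ifitm5 gate 9.63% with 13.1%. Both gates thus did not stand above immune cells at P25 but did stand above epithelial cells.

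Against the other gates Nov was higher in the Mmp3 gate by 4.29 (SE 1.14, adjusted p = 0.0267), a call that depended on the 8 weeks library. Without it the log2 fold change was 1.64 (adjusted p = 0.450), and 4 other alternatives ended the call, the range of adjusted p over 17 being 0.00322 to 0.450. Without P25 it was 4.90 (adjusted p = 0.0835). Of the 30 Mmp3 cells at 8 weeks, 8 had at least 3 Nov UMIs, against 1 of 24 at P25 and 0 of 44 at P15. In the order Mmp3, Ifitm5, Ibsp, Hand2, Rgs5 and Pappa2 no neighbours differed by the test (adjusted p 0.0527 to 0.995). At P15 alone the Nov level of Pappa2 was above those of Ifitm5 (0.334 CPM, from 4 UMIs) and Ibsp (0.612, from 12). With so few UMIs this order may be counting error.

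**Figure D3:**
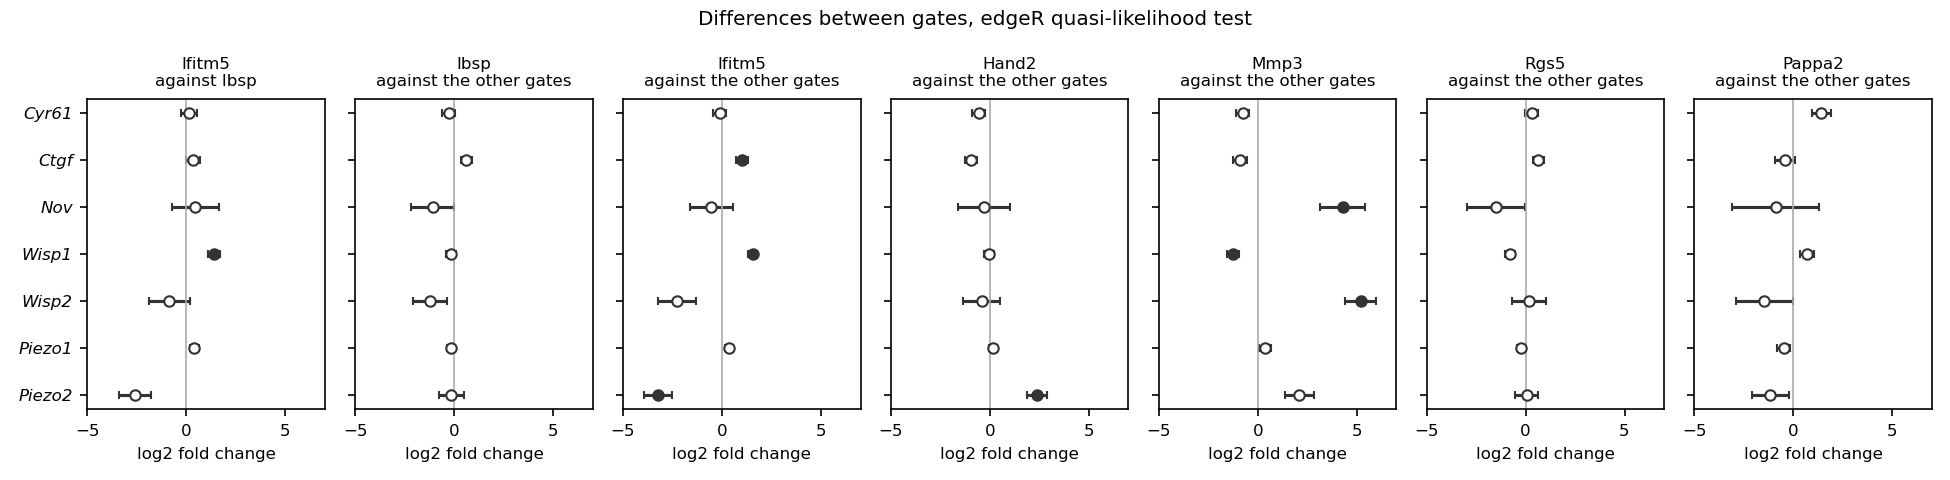
Log2 fold change of each member with its SE in the contrast of the Ifitm5 against the Ibsp gate and of each gate against the others. Filled points have an adjusted p under 0.05 (edgeR quasi-likelihood test). Filled points are Wisp1 in the first panel, Ctgf, Wisp1 and Piezo2 for the Ifitm5 gate, Piezo2 for the Hand2 gate and Wisp1, Wisp2 and Nov for the Mmp3 gate.

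Piezo1, the channel whose promoter is shown above, was even across gates and ages. The Ibsp gate had 20.4, 20.7 and 20.4 CPM and the Ifitm5 gate 25.3, 25.2 and 20.7 at P15, P25 and 8 weeks. In the Hand2 gate the levels were 23.7, 26.3 and 27.5, and in the Rgs5 gate 25.1, 18 and 18.4. The Mmp3 gate at P15 was the exception, at 54.2 (36.8 to 76.9, from 31 UMIs), while its later levels of 14.8 and 17.0 came from 6 and 7 UMIs. Endothelial cells had 67.2 at P15 (55.6 to 80.5) and, from 13 UMIs, 51.5 at P25.

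No contrast of the main fit called Piezo1, the fold changes lying between -0.49 (Pappa2 gate, SE 0.33) and 0.41 (Ifitm5 against Ibsp, SE 0.23, adjusted p = 0.427) on the log2 scale. Without the P15 library, edgeR called it higher in the Ifitm5 gate than in the others (0.51, adjusted p = 0.0474). Neighbours in the order Ifitm5, Hand2, Mmp3, Ibsp, Rgs5 and Pappa2 had adjusted p between 0.431 and 0.929. Among thinned cells, 6.0%, 6.39% and 4.99% of the Ibsp gate had a Piezo1 UMI (26.5%, 24.2% and 15.6% without thinning). Immune cells had 4.46%, 6.49% and, as 2 of 25 cells, 8.0%, so that these shares do not stand above that class, in which Piezo1 is also known to be expressed.

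Piezo2 was lowest in the Ifitm5 gate in all 3 libraries, though at P15 within counting error of the Ibsp gate. It was higher in the Hand2 gate than in the other gates by the test. The Hand2 gate had 48.2 CPM at P15 (41.3 to 55.9), 37.1 at P25 (31.2 to 43.8) and 21.4 at 8 weeks (14.2 to 31.0). The Mmp3 gate had 55.9, 34.6 and 7.28, the last from 3 UMIs and below the Ibsp gate, which had 3.41, 5.96 and 13.8. The Ifitm5 gate had 2.92 at P15 (35 UMIs), 0.424 at P25 (9 UMIs) and 0.291 at 8 weeks (1 UMI). At P15 the Ibsp gate held 3.36% of the Piezo2 UMIs with 10.5% of all UMIs, and the Ifitm5 gate 1.75% with 6.39%. Immune cells held 2.26% with 6.70%, so the P15 levels of both gates did not stand above immune cells. Later immune cells held 0.588% (P25) and 0 (8 weeks), with 2.56% and 0.604% of all UMIs. The Hand2 and Ifitm5 levels did not overlap, the lowest of the former being above the highest of the latter. Endothelial cells had 103 CPM at P15 (88.1 to 119) and, from 12 cells, 163 at P25.

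By the test Piezo2 was higher in the Hand2 gate than in the other gates by 2.39 on the log2 scale (SE 0.51, adjusted p = 0.0217). It was lower in the Ifitm5 gate than in the others (log2 fold change -3.25, SE 0.72, adjusted p = 0.0111). The Mmp3 gate did not pass the test (2.10, SE 0.72, adjusted p = 0.0682). The calls of the Hand2 and Ifitm5 gates both fell short without the P25 library (adjusted p = 0.292 and 0.199), and the former also without the late Rgs5 sums (0.0607). The ranges of adjusted p over 17 alternatives were 0.000667 to 0.292 for the Hand2 gate and 4.12e-06 to 0.199 for the Ifitm5 gate. Ifitm5 against Ibsp gave -2.59 (SE 0.81, adjusted p = 0.117). The Ifitm5 gate was at 0.854 (0.551 to 1.30), 0.0712 and 0.0211 times the Ibsp gate at P15, P25 and 8 weeks. Neighbours in the order Hand2, Mmp3, Rgs5, Ibsp, Pappa2 and Ifitm5 had adjusted p between 0.214 and 0.956. At P15 alone the Piezo2 level of Pappa2 was above that of Ibsp.

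Of thinned Hand2 cells, 18.1%, 10.9% and 5.66% had a Piezo2 UMI, against 0.495% of Ifitm5 cells at P15, 0 of 789 at P25 (at most 0.466%) and 1 of 250 at 8 weeks. Without thinning these shares were 47.8%, 39.6% and 21.7% in the Hand2 gate and 4.27% and 1.13% in the Ifitm5 gate at P15 and P25. Immune cells had 1.00% at P15 and 0 of 231 at P25. The 4 endothelial markers summed to 10.7, 3.16 and 2.30 CPM in the Hand2 gate at P15, P25 and 8 weeks, against 3250, 2568 and 3293 in the endothelial class, and Cdh5 was at 0 in the Hand2 gate at P25 and 8 weeks. In the Mmp3 gate the 4 markers summed to 6.99, 4.94 and 2.43. Cells with at least 5 UMIs of these markers had been set apart from every gate, so the low sums were fixed by the gating. Whether endothelial cells had a part in the Piezo2 levels of the gates was not tested.

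Across the gates the members were called in 7 of the comparisons of a gate with the others. In the Ifitm5 gate 3 of 7 members were called (17.5% of all genes tested), in the Mmp3 gate 3 of 7 (18.7% of all genes), in the Hand2 gate 1 of 7 (6.62%), and in the Ibsp (1.72%), Rgs5 (10.1%) and Pappa2 (0.345%) gates none. In these last 3 gates 1, 2 and 1 members had an unadjusted p under 0.05, and DESeq2 called 0, 1 and 0. The median log2 fold change of the members in the Ifitm5 against Ibsp contrast was 0.33 beside -0.02 over all genes.

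Ibsp cells were compared by Hand2, a transcription factor of the mandibular mesenchyme, after the data had been seen. Cells past both gates had been left out of the Ibsp gate used above. Cells of that gate with some, but fewer than 3, Hand2 UMIs fell in neither group of this comparison. At P25 and 8 weeks, 629 and 441 cells passed both the Ibsp and the Hand2 gates (40 at P15). Of the Ibsp gate, 764 of 1252 and 425 of 883 cells had 0 Hand2 UMIs (1209 of 1232 at P15). The double cells had less Ctgf and Wisp1 and more Piezo2 than the Ibsp cells without Hand2, in 3 of 3 libraries for each gene. Ctgf was at 54.4, 75.0 and 65.9 CPM in double cells and at 156, 225 and 335 in Ibsp cells without Hand2. Wisp1 was at 38.5, 33.5 and 28.8 against 163, 79.0 and 70.5. Piezo2 was at 15.9, 15.6 and 17.7 against 3.33, 3.13 and 7.02.

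All 3 differences passed the edgeR test, and for each the groups of libraries did not overlap. Ctgf differed by -1.90 (SE 0.35, adjusted p = 0.0111), Wisp1 by -1.56 (SE 0.24, adjusted p = 0.00235) and Piezo2 by 2.17 (SE 0.52, adjusted p = 0.0424) on the log2 scale, where 3.15% of 12794 genes were called. For Cyr61 (-0.89, SE 0.39, adjusted p = 0.265), Nov, Wisp2 and Piezo1 (-0.10, SE 0.24, adjusted p = 0.908) the test was not passed. Double cells carry Hand2 UMIs by construction and were also deeper, with median UMIs of 16508.5, 14554.0 and 10617.0 against 14750.0, 13367.0 and 8394.0 in Ibsp cells without Hand2. The 5 Ifitm5 markers summed to 227, 187 and 254 CPM in double cells, with Phex at 0 at P15, against 2366, 2163 and 5510 in Ibsp cells without Hand2, and 4 cycling markers to 1239, 720 and 745 against 309, 485 and 153. The part of depth and of these markers in the differences was not tested.

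**Figure D4:**
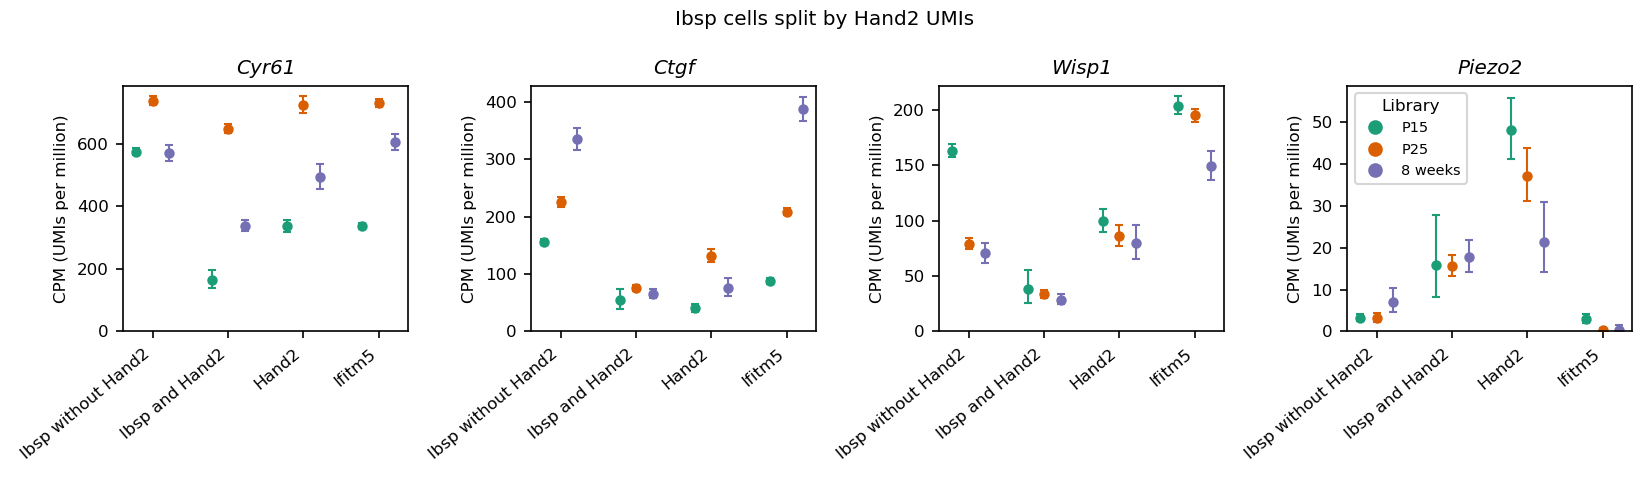
Level (CPM, linear axis from 0) of 4 members in Ibsp cells with 0 Hand2 UMIs, in cells past both the Ibsp and Hand2 gates, in the Hand2 gate and in the Ifitm5 gate, by library (colours), with 95% Poisson intervals. Ctgf and Wisp1 are lower and Piezo2 higher in the double cells than in Ibsp cells without Hand2 in all 3 libraries.

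With the Ibsp cells that had 0 Hand2 UMIs in place of the whole Ibsp gate, Wisp1 in the Ifitm5 gate was 1.25, 2.47 and 2.12 times that level at P15, P25 and 8 weeks. Ctgf was 0.56, 0.926 and 1.16 times, and Cyr61 0.585, 0.989 and 1.06 times (0.999 to 1.13 at 8 weeks). Piezo2 was 0.877 (0.564 to 1.34), 0.135 (0.0575 to 0.286) and 0.0414 times (0.00101 to 0.253), the last from 1 UMI in the Ifitm5 gate. At P25 and 8 weeks these Piezo2 ratios were nearer to 1 than those to the whole Ibsp gate. By total UMIs, the Cyr61 of the Ifitm5 gate at 8 weeks was 1.47 times the whole Ibsp gate but within counting error of the Ibsp cells without Hand2. The TMM scaling of the edgeR test put the ratio to the whole Ibsp gate higher, at 1.72 (1.63 to 1.82). Ratios to the Ibsp cells without Hand2 were not computed with TMM, so those given here hold for total UMIs only.

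Between ages, 34 of the 82 ratios with at least 10 CPM at either age were past 2-fold, 17 higher and 17 lower at the later age, as a description of single libraries. The Mmp3 gate gave more of them than any other gate, and there 30.1% to 32.6% of all genes were past 2-fold. A share over all genes was computed for each gate and pair of ages, as given below, but not for the pooled count. In the Ibsp gate Wisp1 at P25 was 0.369 times (0.344 to 0.395) and at 8 weeks 0.274 times (0.245 to 0.307) its P15 level, while Piezo2 rose to 4.04 times (2.95 to 5.57) by 8 weeks. The P15 level from which Piezo2 rose did not stand above that of immune cells, as given above. Of the 5 members with enough counts, 2 (Wisp1 and Wisp2) were past 2-fold from P15 to P25, beside 4.94% of all genes. From P15 to 8 weeks 2 of 5 (Wisp1 and Piezo2) were, beside 5.37%. From P25 to 8 weeks 2 of 6 (Wisp2 and Piezo2) were, beside 3.74%. Wisp2 had 21, 233 and 5 UMIs in this gate. Its share of cells at P25 did not stand above that of immune cells, though its level did, as given above. The split by Hand2 bears on Wisp1 and Piezo2. In Ibsp cells without Hand2, Wisp1 went from 163 to 79.0 and 70.5 CPM and Piezo2 from 3.33 to 3.13 and 7.02.

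In the Ifitm5 gate Cyr61 at P25 was 2.17 times (2.10 to 2.25) and Ctgf 2.38 times (2.23 to 2.55) the P15 level, 2 of 4 members beside 7.76% of all genes. Ctgf reached 4.43 times (4.08 to 4.81) by 8 weeks, and with Nov 2 of 5 members were past 2-fold, beside 7.47%. From P25 to 8 weeks Nov alone was, beside 5.44%. In cells of no gate Ctgf rose likewise, to 2.86 times at P25 and 2.80 times at 8 weeks.

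The Hand2 gate showed 2 of 5 members past 2-fold from P15 to P25, beside 8.93% of all genes, namely Cyr61 (2.15 times, 2.01 to 2.31) and Ctgf (3.26 times, 2.71 to 3.94). Piezo2 at 8 weeks was 0.445 times its P15 level (0.287 to 0.665), 1 of 5 beside 12.3%. In the Rgs5 gate 2 of 6 were past 2-fold at P25, beside 13.7%, and 3 of 6 at 8 weeks, beside 17.0%. From P25 to 8 weeks none of 5 was in the Hand2 gate (7.19%) and none of 4 in the Rgs5 gate (8.36%). The Mmp3 gate had 4, 6 and 5 of 7 members past 2-fold, but there 30.1%, 31.8% and 32.6% of all genes were as well. The later Rgs5 and Mmp3 gates also had far lower levels of Notch3 and Il1rl1, as given above, and the part of this in the ratios was not tested.

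Nov, Wisp2 and Piezo2 came from few cells, and the cells with at least 3 UMIs of each were looked at, a limit chosen after the data had been seen. Nov had 15, 78 and 53 such cells at P15, P25 and 8 weeks, of which 9 of 15, 62.8% and 73.6% were in no gate. Of all cells, 53.4%, 51.3% and 59.96% were in no gate, so the P15 share of the Nov cells was near that of any cell. Genes high in the Nov cells in all 3 libraries were Mfap5, a microfibril protein, Clec3b (tetranectin) and Cd34, an adhesion protein of fibroblast and vascular precursors. Mfap5 was at 2223, 2123 and 1539 CPM in these cells against 20.7, 25.3 and 105 in all other cells, and Cd34 at 648, 575 and 1349 against 11.4, 9.56 and 60.1.

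The Wisp2 cells numbered 56, 304 and 61, with 53.6%, 85.9% and 86.9% in no gate. They were high in Stc1 (stanniocalcin), at 560, 511 and 234 CPM against 7.64, 14.3 and 3.46, and in the BMP antagonist Grem1, at 695, 335 and 679 against 26.3, 42.2 and 27.5. Piezo2 had 180, 77 and 16 such cells, of which 12.8%, 20.8% and 6.25% (1 cell) were in the Hand2 gate and 13.9%, 7.79% and 0 in the endothelial class. Of all cells, the Hand2 gate held 1.38%, 2.14% and 2.04% and the endothelial class 1.29%, 0.134% and 0.116%. In no gate were 49.4%, 49.4% and 11 of 16 of the Piezo2 cells. At P15 and P25 these shares were not above those of all cells. The cells of each member were chosen by that member itself, so the values describe them and were not tested.

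**Figure D5:**
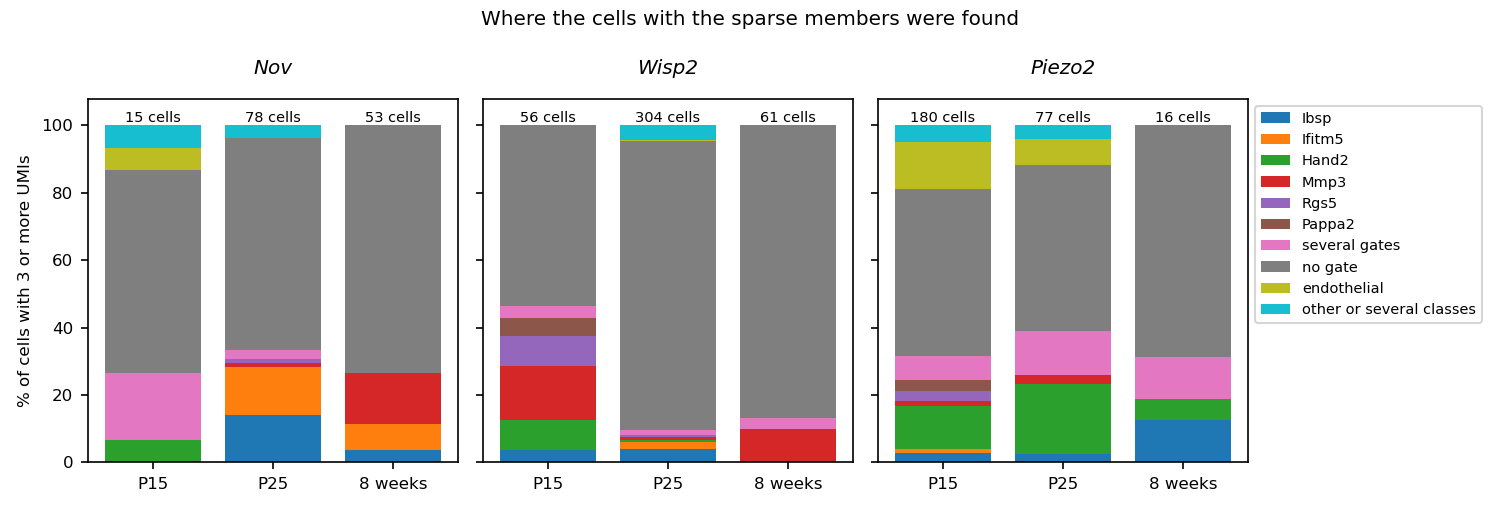
Share (%, linear axis) of the cells with at least 3 UMIs of Nov, Wisp2 or Piezo2 that fell in each gate, in several gates, in no gate or in another class, for each library, with the number of such cells above each bar. Cells of no gate make up 49.4% to 86.9% of every bar, against 51.3% to 59.96% of all cells. The Hand2 gate makes up 6.25% (1 of 16 cells) to 20.8% of the Piezo2 bars, against 1.38% to 2.14% of all cells.

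Within gates, Ctgf was more often detected in cells with a Cyr61 UMI than in cells without in 8 of 9 combinations of the Ibsp gate, the Ifitm5 gate or cells of no gate with a library. The widest gap was in the Ifitm5 gate at 8 weeks, with 49.2% against 29.7%, and the exception was the Ibsp gate at P25, with 24.5% against 30.5%. In the Ibsp gate at 8 weeks, counted among the 8, the shares were nearly equal, at 24.7% and 24.5%. For Wisp1 the share was higher in cells with Cyr61 in 6 of 9 and in cells with Ctgf in 5 of 9. These are shares of cells thinned to equal depth, described without a test.

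Genes of the pathways around the members were taken from 5 lists. Of 20 YAP signature genes other than Cyr61 and Ctgf, 18 were tested and in the Ifitm5 against Ibsp contrast none was called higher and 1 lower, Rbms3, an RNA-binding protein (log2 fold change -0.81, SE 0.19, adjusted p = 0.0357). Of 13 Hippo pathway genes tested, Tead1, a DNA-binding partner of YAP, was lower (-0.79, SE 0.15, adjusted p = 0.0121), with 42.4, 29.2 and 43.1 CPM in the Ifitm5 gate against 73.5, 64.6 and 86.4 in the Ibsp gate. Among the other mechanically gated channels and PIEZO partners (10 tested), CCN receptors (9 tested) and immediate early genes (13 tested) none was called. The list medians in this contrast were -0.18, -0.16, 0.05, -0.17 and 0.20 beside -0.02 for all genes.

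In the Ifitm5 gate against all others, 5 YAP signature genes were lower and none higher, and 3 of 9 receptors were lower. Of the 10 channels and PIEZO partners, 5 were higher and none lower. Named after their values were seen, the mechanically and osmotically sensitive Trpv4 was higher by 1.62 (SE 0.25, adjusted p = 0.000859) and the potassium channel Kcnk2 by 2.14 (SE 0.44, adjusted p = 0.00543) on the log2 scale. Trpv4 was at 24.6, 28.5 and 17.2 CPM in the Ifitm5 gate and 14.8, 15.5 and 12.1 in the Ibsp gate. In the Mmp3 gate 9 YAP signature genes were higher and 1 lower, and 5 of 9 receptors were higher, among them Itgb3, a subunit of a CCN-binding integrin, by 4.18 (SE 0.44, adjusted p = 0.000121). Itgb3, also chosen after its values were seen, was at 183, 71.6 and 58.3 CPM there. In the Rgs5 gate 7 of 13 immediate early genes and 4 YAP signature genes were higher. In the Hand2 gate 3 immediate early genes were lower, and 1 YAP signature gene was higher and 1 lower. Of the 10 channels and PIEZO partners, 2 were lower and none higher in the Hand2 gate, namely Mdfic, a PIEZO partner, and Pkd1. The Rgs5 gate likewise had 2 lower, Tmem63a and Pkd1, and none higher. In the Mmp3 gate 2 were higher, Tmem63a and Mdfic, and 1 was lower, Trpv4. Of all genes, 10.3% were higher and 7.19% lower in the Ifitm5 gate, 10.3% and 8.38% in the Mmp3 gate, 7.01% and 3.09% in the Rgs5 gate, and 3.76% and 2.85% in the Hand2 gate.

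The genes whose levels followed each member most closely over the 16 sums of gates and libraries, out of 6054 genes with a mean of at least 20 CPM, were Batf, Dusp18 and Tmed3 for Cyr61 (Pearson r 0.77, 0.73 and 0.72 of log2 levels) and Cpq, Gnptg and Dennd4a for Ctgf (0.85, 0.84 and 0.83). For Wisp1 they were Ssr3, Ufsp2 and 2310039H08Rik (0.92, 0.91 and 0.90), for Nov Ptrf, Dpysl2 and Tppp3 (0.86, 0.83 and 0.83), and for Wisp2 Man1a, Suds3 and Pamr1 (0.92, 0.91 and 0.91). Ehd4, Psmd3 and Pi4k2a (0.91, 0.88 and 0.84) lay closest to Piezo1 and Slc39a6, Med9 and Skiv2l2 (0.91, 0.90 and 0.90) to Piezo2. The sums of a library share its depth and preparation, so these correlations are descriptions.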

How the data were processed

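The authors aligned 10x Chromium 3′ reads of reporter-positive cells with Cell Ranger (6.1.2 in the headers of P15 and 8 weeks, 6.0.1 in that of P25) to mm10 and deposited raw UMI counts per gene and cell, 1 matrix per library. The P25 table lists 32293 genes and writes the CCN genes as Ccn1 to Ccn5, against 22056 genes at P15 and at 8 weeks. In ratios with P25, this difference in gene lists cannot be told apart from age. All deposited cells were used, and no doublet was removed in the main analysis. Counts were summed over the cells of each gate and library (16 sums of at least 20 cells) and compared with edgeR 4.0.16 (R 4.3.3): TMM, filterByExpr, the quasi-likelihood test with robust estimates, gate and library as terms, and Benjamini-Hochberg adjustment over all 12752 genes, an adjusted p under 0.05 being called. With the library as a term, the spread behind each p is how far differences between gates vary among the libraries, each a pool of a different age. A difference between gates that changes with age thus adds to this spread. The Pappa2 gate is an exception: with 1 sum, at P15, its own differences cannot vary among libraries. Its p values take the spread of the other gates. The P15 sum of Pappa2 is also part of each comparison of a gate with the others. Deviations of 2 gates of 1 library had correlations of 0.14 to 0.787 across genes, so the library entered as a block. Scripts were tested on simulated data. DESeq2 1.42.0, other gates, filters and scalings were alternatives. Ages have 1 library each and were not tested. Positions come from GENCODE M21 (GRCm38). The rule for named genes took the 7 members, the genes of 5 lists called with the largest change in the Ifitm5 against Ibsp contrast, and for each member the 3 genes of most similar level. The members and lists were chosen with earlier results of these data known.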

Additional observations from a re-analysis of the deposited data

Results flagged for a closer look

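Cyr61 and Ctgf were flagged because the difference between the Ifitm5 and Ibsp gates ran in opposite directions at different ages, with counting intervals clear of 1 on both sides. The Cyr61 level of the Ifitm5 gate was 0.588 times that of the Ibsp gate at P15 (0.567 to 0.609), 1.02 times at P25 (1.00 to 1.05) and 1.47 times at 8 weeks (1.39 to 1.55). For Ctgf the ratios were 0.557 (0.519 to 0.597), 1.15 (1.10 to 1.20) and 1.95 (1.81 to 2.10). Against Ibsp cells with 0 Hand2 UMIs alone, the Ctgf ratios were 0.560 at P15, 0.926 at P25 (0.883 to 0.972), now below 1, and 1.16 at 8 weeks (1.07 to 1.25), and the Cyr61 ratios 0.585, 0.989 (0.963 to 1.02) and 1.06 (0.999 to 1.13). All these ratios are by total UMIs. With the TMM scaling of the edgeR test, the ratios to the whole Ibsp gate were 0.618, 1.24 and 1.72 for Cyr61 at P15, P25 and 8 weeks. For Ctgf they were 0.585, 1.40 and 2.30. Ratios to the Ibsp cells without Hand2 were not computed with TMM. Each age had 1 library, so the difference between ages was not tested.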

How the results depend on the processing

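In the Ifitm5 against Ibsp contrast 314 genes were higher and 215 lower, with 1 member called. Scaling moved this split: by total UMIs, chosen after the data had been seen, the median gene of the Ifitm5 gate lay at -0.05 (P15), -0.26 (P25) and -0.23 (8 weeks) on the log2 scale relative to Ibsp, and 214 genes were higher and 396 lower. Keeping cells of several gates gave 589 higher, 454 lower and 2 members called, and the DESeq2 Wald test 620, 490 and 2, with 11 in place of 7 calls of members in the comparisons of each gate with the others. Without the late Rgs5 sums, also chosen later, 4 of those calls were made. Without the library as a replicate block, 104 genes were higher, 63 lower and 0 members called in edgeR (2 members at an unadjusted p under 0.05), and Wisp1 had a log2 fold change of 1.24 (adjusted p = 0.276). Leaving out 1 library left 2 per gate and gave 3 to 539 genes higher, 0 to 466 lower, 0 to 2 members called and 2 to 7 calls against the other gates. The lowest counts (3 higher, 0 lower, 0 members) came without P25, where 408 and 418 genes and 1 member had an unadjusted p under 0.05, and the highest (539 and 466) without P15. Without 8 weeks the counts were 137 and 85. Among the members' fold changes 781 values kept their direction and side of the threshold, 18 gained and 27 lost the call, and the cause was not tested. The number of levels of at least 100 CPM was 33 to 37 and of ratios between ages past 2-fold 23 to 37, against 34 each, but single values moved: 140 levels, 120 ratios between ages and, without thinning, 86 shares of cells lay beyond the counting interval of the main value (630, 638 and 26 within). The count of 23 ratios came from gates at 5 UMIs (20 for Ibsp) and from gates per 10000 UMIs. In both settings the Mmp3 gate at P25 had 19 cells, under the minimum of 20, and was not summed. Of 539 levels of at least 10 CPM, 15 moved over 1.5-fold, to between 0.342 and 3.08 times the main level. Depth limits Nov, Wisp2 and Piezo2, which rest on under 50 UMIs in several sums, and the Mmp3 gate with its few cells.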
